A study of Mus musculus with 9 samples.

Results

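Bone morphogenetic protein (BMP) signalling was followed through 10 genes in adult olfactory bulb stem cells (aOBSCs): the 4 Id genes (Id1, Id2, Id3 and Id4), the receptor genes Bmpr1a, Bmpr1b and Bmpr2, the signal transducers Smad1 and Smad5, and the ligand gene Bmp4. The 10 genes were chosen with earlier results of these data known. All probe sets (groups of short oligonucleotides that together read 1 transcript) whose annotation gives exactly 1 of these symbols were then taken, without regard to their values. They numbered 27 of the 45037 probe sets tested: 8 for the Id genes, 12 for the receptors, 6 for the SMADs and 1 for Bmp4. The cells came from the olfactory bulb of adult CD1 or C57Bl/6 mice and grew as floating neurospheres, with FGF-2 and EGF given daily until the third passage. The cultures then spent a pair of further passages under an interval between additions of 1 day (Ctr), 2 days (C2) or 4 days (C4), at the same dose and without a change of medium. RNA was taken after a week in culture, when C4 neurospheres had been longer without fresh factor than C2 neurospheres, and hybridised to 3 Affymetrix mouse expression arrays per condition, 9 in all. The series describes the 3 arrays of a condition as biological replicates, but the animal or culture behind each array is not stated, and the legend of the array experiment names mice of more than 1 age. The p-values therefore measure only the spread between these samples.

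The comparison of conditions asks how the RNA of these genes moved when the growth factors were given less often. BMP ligands such as the product of Bmp4 bind a complex of type I receptors (Bmpr1a, Bmpr1b) and the type II receptor (Bmpr2), which are serine/threonine kinases. The activated type I receptor phosphorylates SMAD1 and SMAD5, which join SMAD4, enter the nucleus and switch on target genes, of which the Id genes are the best known. Id proteins have a helix-loop-helix domain but no basic region, so they pair with basic helix-loop-helix (bHLH) transcription factors and keep them off DNA. In adult neural stem cells, BMP signalling is known for its links with quiescence and with the astrocyte fate, and Id proteins for keeping progenitors undifferentiated.

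The RefSeq table of promoters (build GRCm38.p6) matched 3 of the 4 Id genes, Id2, Id3 and Id4, which are also the Id genes with a called difference below. Their 250 bases upstream of the start site are shown because the 3 genes are known as BMP targets and moved in different directions. SMAD activity was not measured, and sequence outside these windows was not examined. Capitals mark GGCGCC, a GC-rich element known to bind SMAD1 and SMAD5, and GTCT or its reverse complement AGAC, the core of the SMAD box. Each sequence is given on the strand of its gene, for Id2 chr12:25096093-25096342 on the minus strand, for Id3 chr4:136143572-136143821 on the plus strand and for Id4 chr13:48260866-48261115 on the plus strand.
Id2: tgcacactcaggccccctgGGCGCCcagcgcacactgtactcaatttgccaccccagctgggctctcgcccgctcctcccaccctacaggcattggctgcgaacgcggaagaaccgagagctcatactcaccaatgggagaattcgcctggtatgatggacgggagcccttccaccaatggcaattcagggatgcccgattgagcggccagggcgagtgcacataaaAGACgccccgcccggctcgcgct
Id3: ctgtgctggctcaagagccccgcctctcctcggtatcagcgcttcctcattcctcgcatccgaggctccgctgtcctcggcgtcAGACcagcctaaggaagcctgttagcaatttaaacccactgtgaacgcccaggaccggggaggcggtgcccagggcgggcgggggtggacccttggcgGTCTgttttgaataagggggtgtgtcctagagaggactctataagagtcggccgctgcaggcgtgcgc
Id4: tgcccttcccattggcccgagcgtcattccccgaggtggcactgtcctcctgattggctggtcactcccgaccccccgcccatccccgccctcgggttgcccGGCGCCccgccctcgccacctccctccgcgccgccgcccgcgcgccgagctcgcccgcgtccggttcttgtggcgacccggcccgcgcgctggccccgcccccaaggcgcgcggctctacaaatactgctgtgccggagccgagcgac

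The Id2 window held GGCGCC from -231 to -226 relative to the start site and AGAC from -23 to -20. The Id3 window held AGAC from -166 to -163 and GTCT from -68 to -65, with no GGCGCC. The Id4 window held GGCGCC from -148 to -143 and no GTCT on either strand. Of all 32851 promoter windows of the same length in the table, 9.59% held GGCGCC and 82.9% held GTCT on one strand or the other. The longer motifs GTCTAGAC (in 0.167% of the windows) and CAGACA (17.1%), in which GTCT or AGAC is contained, had no match in the 3 windows. The E-box CANNTG, which bHLH factors bind (66.2% of windows), was found once, as CAGCTG from -196 to -191 in Id2. The Id4 window was richer in G and C (75.6%) than those of Id2 and Id3 (62.8% each). These matches describe the letters of the windows and were not set against binding data.

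Values are log2 GCRMA values as deposited, so a difference of 1 is a doubling. GCRMA puts a transcript without signal at a common low value, which was 2.27 on these arrays and was shared by 34.8% to 35.8% of the probe sets of an array, and a mean over all arrays of under 4 is treated here as near that floor. The arrays were alike, with upper quartiles of 6.46 to 6.60. Markers fixed for neural stem and progenitor cells had a mean over 4 for 9 of 10 genes (Prom1 being the exception), and those of endothelial cells for 0 of 7. Of the 27 probe sets, 22 had a mean over 4. The others were 1 for Id2, 1 for Id4, 2 for Bmpr1a and that of Bmp4. A gene is described by its probe set of highest mean, with the others beside it, since different probe sets of a gene can read different transcripts. Conditions were compared with limma in 1 fit of all 9 arrays, with Benjamini-Hochberg adjustment over all 45037 probe sets. A difference is called where the adjusted p is below 0.05.

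In C4, Id3, Id4, the type I receptor gene Bmpr1b and Smad5 were higher than in Ctr, and Id2 was lower. Among the 27 probe sets, 5 were called higher (2 of them of Id4) and 2 lower (both of Id2). Over all probe sets, 3.78% were called higher and 2.51% lower in this comparison. Among the 22 with a mean over 4 the counts were the same 5 and 2, and among all 18277 such probe sets 9.02% were called higher and 5.99% lower. The median difference between C4 and Ctr was 0.11 over the 27 probe sets and 0 over all probe sets tested, many of which are near the floor. With a mean over 4, it was 0.17 over the 22 and 0.037 over all 18277. In C2, 0 of the 27 were called higher and 1 (Id2) lower than in Ctr, beside 1.13% higher and 0.577% lower over all probe sets. The median difference was 0 over both, and with a mean over 4 it was -0.012 over the 22 and 0.019 over all 18277. Between C4 and C2, 5 were higher in C4 and 2 lower, beside 2.86% and 2.39% over all probe sets. By gene, the 4 higher and 1 lower genes of C4 against Ctr were also those of C4 against C2, which share the C4 arrays. Centring each array on its median, over probe sets above 4 on all arrays, moved the split of the calls over all probe sets to 1790 higher and 1987 lower, against 1702 and 1131, for C4 versus Ctr, and to 602 and 548, against 507 and 260, for C2 versus Ctr. No called difference of a member turned its sign under this or any other setting tried.

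**Figure D1:**
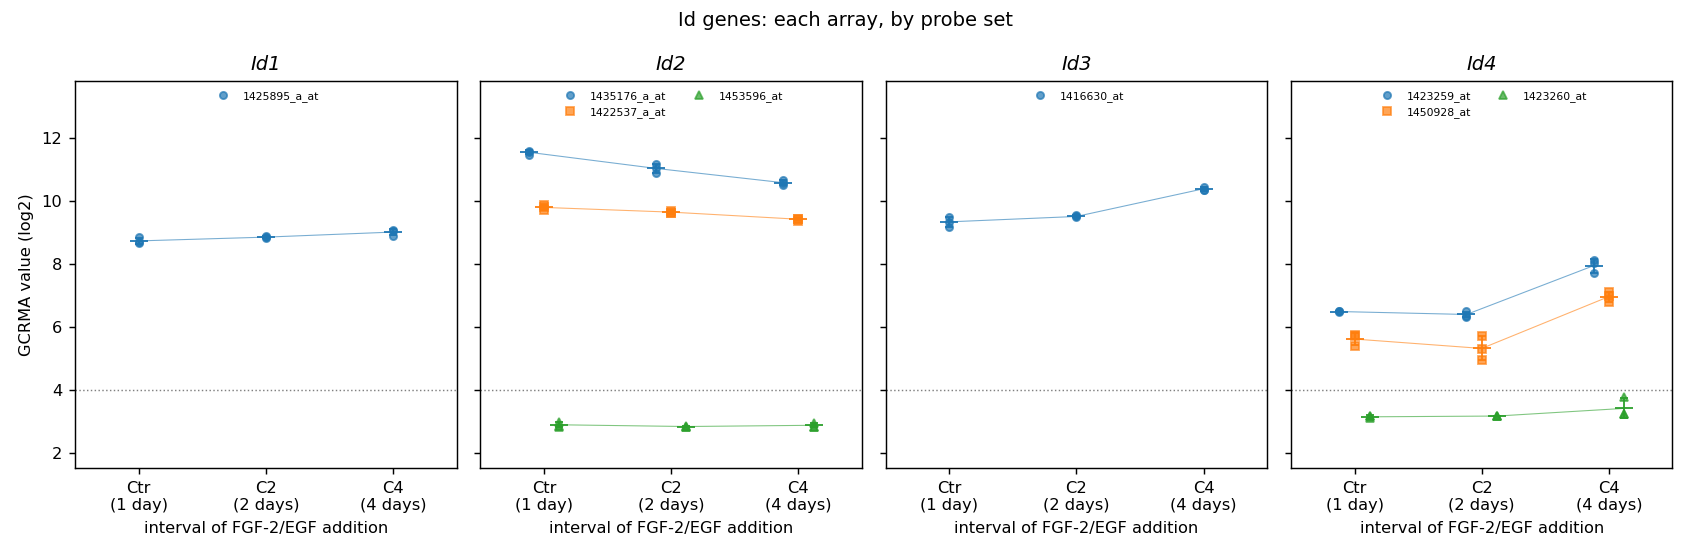
Log2 GCRMA value of each array (points) for every probe set of the 4 Id genes in Ctr, C2 and C4 (factors every 1, 2 and 4 days), with the mean and SD of 3 arrays (horizontal tick and bar), lines joining the means and a dotted line at 4. Id2 is lowest in C4, Id3 and Id4 are highest there, with no overlap with Ctr arrays for their probe sets over 4, and Id1 lies between 8.65 and 9.08 throughout.

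Id3 (chromosome 4 from 136143822 to 136145392) has a single probe set, 1416630_at. It gave 9.17, 9.34 and 9.47 on the Ctr arrays, 9.53, 9.50 and 9.47 on the C2 arrays and 10.34, 10.44 and 10.35 on the C4 arrays. All C4 arrays lay above all others, while the highest Ctr array reached the lowest C2 array. C4 exceeded Ctr by 1.05 (standard error 0.0736, 95% interval 0.87 to 1.23, limma adjusted p = 0.000729), which is 2.07-fold, and exceeded C2 by 0.88 (adjusted p = 0.00133, 1.84-fold). The difference between C2 and Ctr was 0.17 (interval -0.0050 to 0.35, adjusted p = 0.509) and did not pass. The order was thus C4 above C2 and Ctr, which were not separated beyond their spread. On bulk arrays, a change in the number of cells that hold a transcript and a change in RNA per cell cannot be told apart.

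Id4 (chromosome 13 from 48261116 to 48266028), an Id gene known for its expression in quiescent stem cells and astrocytes, showed the largest difference of the 10 genes between C4 and Ctr. Its probe set 1423259_at gave 6.49, 6.49 and 6.45 in Ctr, 6.32, 6.35 and 6.49 in C2 and 7.69, 8.01 and 8.11 in C4. The C4 arrays stood apart from the rest, and Ctr and C2 overlapped. C4 exceeded Ctr by 1.46 (standard error 0.108, interval 1.20 to 1.71, adjusted p = 0.000875, 2.74-fold) and C2 by 1.55 (adjusted p = 0.000612). C2 differed from Ctr by -0.09 (adjusted p = 0.937). The second probe set over 4, 1450928_at, read 5.40, 5.73 and 5.69 in Ctr, 5.29, 5.70 and 4.93 in C2 and 6.78, 7.10 and 6.97 in C4. It moved in the same direction, by 1.35 in C4 against Ctr (adjusted p = 0.0124) and by 1.65 in C4 against C2 (adjusted p = 0.00646). The call of C4 against Ctr for this probe set was just lost without C4 replicate 2 (1.27, adjusted p = 0.0502). The third, 1423260_at, stayed under 4 on all arrays (0.27 in C4 against Ctr, adjusted p = 0.499).

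Id2 (chromosome 12 from 25093799 to 25096092) moved the other way. The probe set 1435176_a_at gave 11.56, 11.59 and 11.46 in Ctr, 11.16, 11.05 and 10.86 in C2 and 10.65, 10.58 and 10.49 in C4. The 3 conditions did not overlap, and C2 lay between the other two. C4 was lower than Ctr by a log2 difference of -0.97 (standard error 0.082, interval -1.16 to -0.77, adjusted p = 0.00139), or 0.512 times its level. C2 was lower than Ctr by a difference of -0.51 (interval -0.71 to -0.32, adjusted p = 0.0401), the only call among the members in that comparison, and C4 lower than C2 by -0.45 (adjusted p = 0.0275). These calls of the intermediate step were close to the threshold: of 16 other settings, C2 against Ctr passed in 6 (adjusted p from 0.00485 to 0.137) and C4 against C2 in 7 (0.00311 to 0.107), whereas C4 against Ctr passed in all 16. Leaving out any 1 array other than C2 replicate 1 ended the call of C2 against Ctr. The second probe set, 1422537_a_at, read 9.81, 9.70 and 9.85 in Ctr, 9.68, 9.61 and 9.61 in C2 and 9.43, 9.43 and 9.37 in C4. Its difference was smaller, -0.37 in C4 against Ctr (adjusted p = 0.00417), -0.15 in C2 against Ctr (adjusted p = 0.213) and -0.23 in C4 against C2 (adjusted p = 0.0321, passing in 7 of 16 other settings). The third probe set of Id2, 1453596_at, lay between 2.83 and 2.98 on all arrays.

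Id1 (chromosome 2 from 152736251 to 152737410), in many cells the Id gene that answers BMP most strongly, did not pass the threshold. Its probe set, 1425895_a_at, gave 8.65, 8.68 and 8.84 in Ctr, 8.80, 8.87 and 8.85 in C2 and 9.03, 9.08 and 8.89 in C4. The lowest C4 array was above the highest Ctr array by a small margin. C4 and Ctr differed by 0.28 (standard error 0.0668, interval 0.12 to 0.44, limma adjusted p = 0.0655), and C2 and Ctr by 0.12 (adjusted p = 0.735). The call was made without Ctr replicate 3 (adjusted p = 0.0349), without C4 replicate 3 (0.0457), when dim probe sets were left out (0.0152) and in a fit of gene means (0.0446), and in none of the 13 other settings. The 4 Id genes therefore did not move as a block: in C4, 2 were higher, 1 was lower and 1 differed by less than the threshold could separate.

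**Figure D2:**
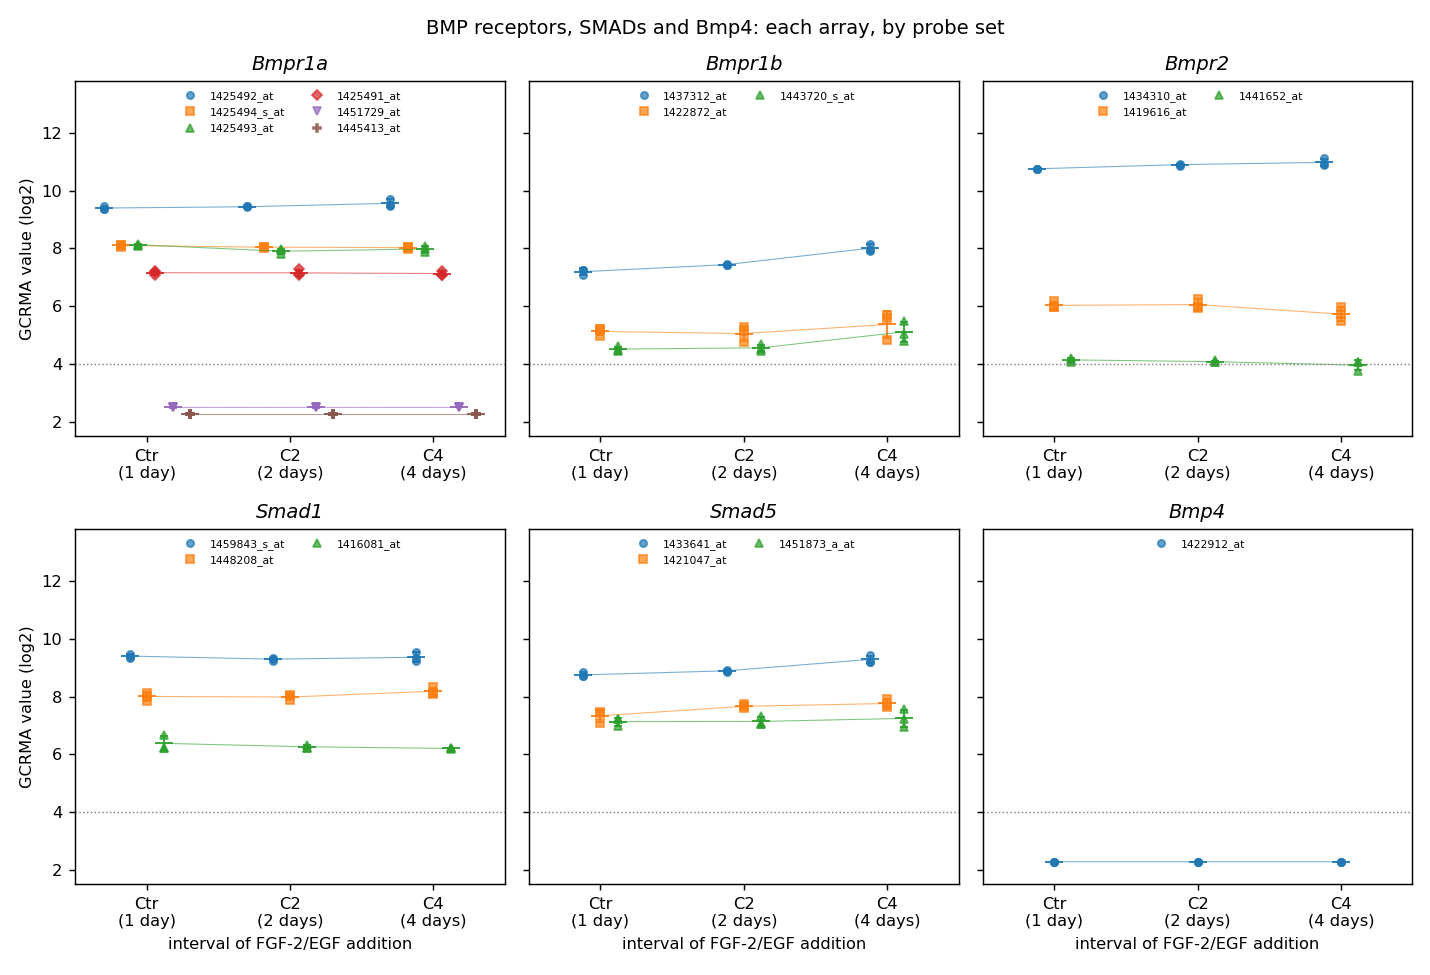
Log2 GCRMA value of each array (points) for every probe set of Bmpr1a, Bmpr1b, Bmpr2, Smad1, Smad5 and Bmp4 in Ctr, C2 and C4, with the mean and SD of 3 arrays, lines joining the means and a dotted line at 4. The leading probe sets of Bmpr1b (7.20 in Ctr, 8.01 in C4) and Smad5 (8.75 in Ctr, 9.29 in C4) are highest in C4, those of Bmpr1a and Smad1 have no call, and Bmp4 is at the floor.

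The ligand gene Bmp4 (chromosome 14 from 46383525 to 46390669) stood at 2.28 on all 9 arrays with its probe set 1422912_at, at the floor, and no difference could be measured for it. Of the receptors, Bmpr1b (chromosome 3 from 141837135 to 142169585) was higher in C4. Its probe set 1437312_at gave 7.27, 7.26 and 7.07 in Ctr, 7.43, 7.47 and 7.43 in C2 and 7.96, 7.90 and 8.17 in C4. The arrays of the 3 conditions did not overlap. C4 exceeded Ctr by 0.81 (standard error 0.083, interval 0.61 to 1.01, adjusted p = 0.00278, 1.76-fold) and C2 by 0.57 (adjusted p = 0.0121), while C2 and Ctr differed by 0.25 (interval 0.047 to 0.44, adjusted p = 0.326). Without C2 replicate 1, the call of C4 against C2 was just lost (0.56, adjusted p = 0.0501). The dimmer probe sets did not pass. 1443720_s_at gave 4.46, 4.62 and 4.47 in Ctr, 4.69, 4.53 and 4.46 in C2 and 4.81, 5.49 and 5.04 in C4 (0.60 in C4 against Ctr, adjusted p = 0.118), and 1422872_at differed by 0.24 (adjusted p = 0.792). In C4 against Ctr, 1443720_s_at passed in 3 of 15 other settings.

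The other type I receptor gene, Bmpr1a (chromosome 14 from 34411061 to 34503336), had no call in any comparison. Its leading probe set, 1425492_at, averaged 9.40 in Ctr, 9.45 in C2 and 9.56 in C4, with a difference of 0.16 between C4 and Ctr (interval -0.0023 to 0.33, adjusted p = 0.322). The 3 further probe sets over 4 (1425494_s_at, 1425493_at and 1425491_at) differed by -0.14 to -0.03, with adjusted p of 0.342 or more. The last 2, 1451729_at and 1445413_at, averaged 2.49 and 2.27 in C4 and the same in Ctr, at the floor. The type II receptor gene Bmpr2 (chromosome 1 from 59764279 to 59878081) gave 10.76, 10.75 and 10.77 in Ctr, 10.91, 10.87 and 10.94 in C2 and 10.93, 10.89 and 11.13 in C4 with 1434310_at. Its C4 and C2 arrays all lay above its Ctr arrays, but C4 exceeded Ctr by only 0.22 (interval 0.078 to 0.37, adjusted p = 0.1), which was not a call, and C2 by 0.14 over Ctr (adjusted p = 0.484). Of 16 other settings, C4 against Ctr passed in 2 and C2 against Ctr in 1. The 2 other probe sets of Bmpr2 (1419616_at and 1441652_at) had differences of the opposite sign, -0.30 and -0.18 (adjusted p = 0.417 and 0.436), so the probe sets of this gene disagreed.

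Of the SMADs, Smad5 (chromosome 13 from 56703010 to 56742378) was higher in C4 and Smad1 was not called. Smad5 probe set 1433641_at gave 8.70, 8.70 and 8.86 in Ctr, 8.89, 8.86 and 8.92 in C2 and 9.21, 9.21 and 9.44 in C4. The C4 arrays were above all others, and C2 and Ctr were separated by less than the test could call. C4 exceeded Ctr by 0.53 (standard error 0.0715, interval 0.36 to 0.71, adjusted p = 0.00777, 1.45-fold) and C2 by 0.39 (adjusted p = 0.0275), and C2 exceeded Ctr by 0.14 (adjusted p = 0.665). A fit of the Ctr and C4 arrays alone lost the first call (adjusted p = 0.0535), and the call of C4 against C2 passed in 8 of 16 other settings (adjusted p from 0.00425 to 0.101). A second probe set, 1421047_at, read 7.10, 7.44 and 7.47 in Ctr, 7.60, 7.66 and 7.73 in C2 and 7.72, 7.92 and 7.65 in C4, a difference of 0.43 between C4 and Ctr (adjusted p = 0.0962), and the third, 1451873_a_at, differed by 0.11 (adjusted p = 0.995). In C4 against Ctr, 1421047_at passed in 2 of 16 other settings. For Smad1 (chromosome 8 from 79338395 to 79399428), the leading probe set, 1459843_s_at, gave 9.39, 9.34 and 9.49 in Ctr, 9.30, 9.25 and 9.34 in C2 and 9.54, 9.33 and 9.22 in C4. The conditions overlapped, and C4 differed from Ctr by -0.04 (interval -0.24 to 0.16, adjusted p = 1). Its other probe sets, 1448208_at and 1416081_at, differed by 0.18 and -0.18 (adjusted p = 0.481 and 0.632).

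**Figure D3:**
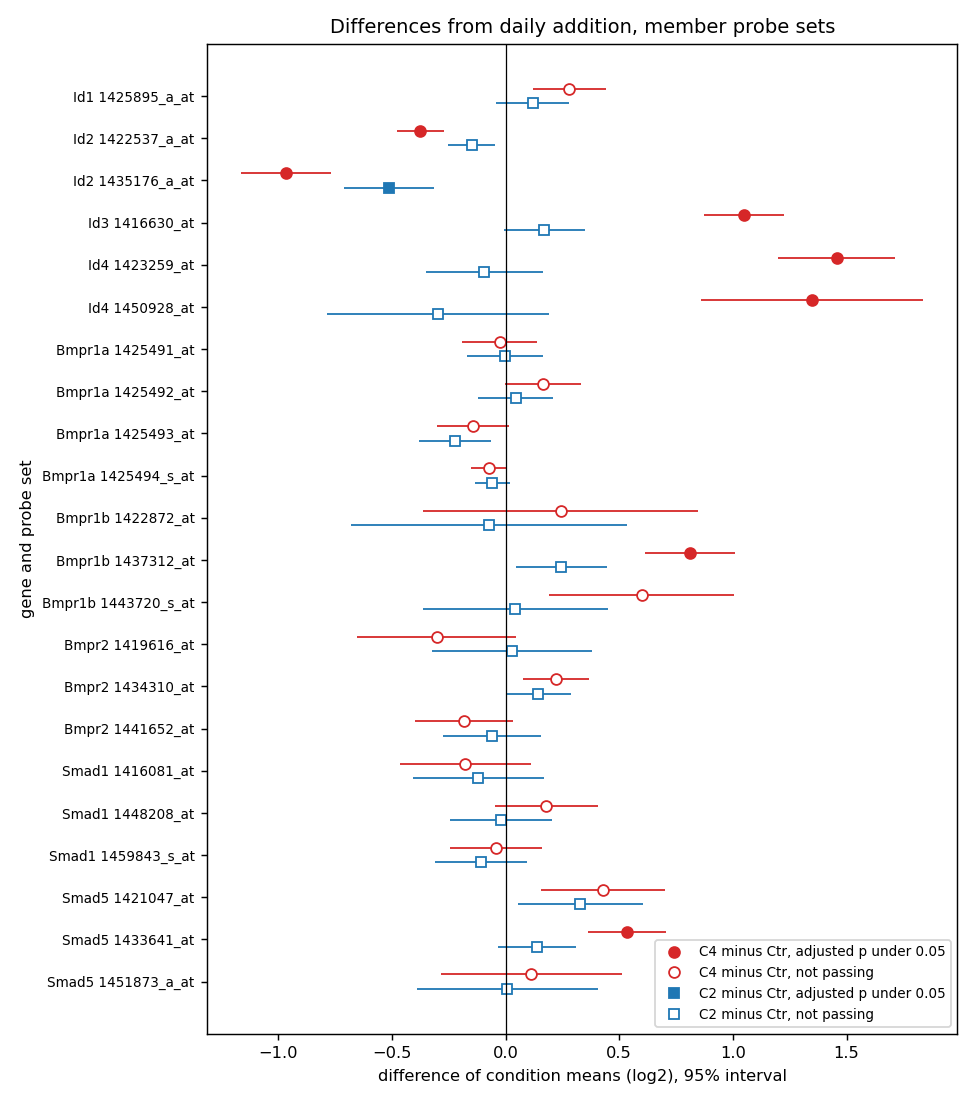
Difference of condition means on the log2 scale (horizontal axis) with its 95% interval for the 22 probe sets of the 10 genes with a mean over 4, C4 minus Ctr as red circles and C2 minus Ctr as blue squares, filled where the adjusted p is under 0.05. The 7 filled circles are those of Id2 (2, below 0), Id3, Id4 (2), Bmpr1b and Smad5, and the 1 filled square is Id2 at -0.51.

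Both comparisons with Ctr use the same Ctr arrays, so chance values of those arrays enter both. The C2 step was small for most members. Of the 5 genes called in C4 against Ctr, only Id2 was called in C2 as well, at -0.51 in C2 and -0.97 in C4. The 4 higher genes had C2 differences of 0.17 (Id3), -0.09 (Id4), 0.25 (Bmpr1b) and 0.14 (Smad5), none of them a call, against 1.05, 1.46, 0.81 and 0.53 in C4. For each of these 4 the direct comparison of C4 with C2 passed, by 0.88, 1.55, 0.57 and 0.39. Only the differences of Id3 and Id4 reached 1 on the log2 scale, the fold that the study used, and that of Id2 fell just short of it.

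Across the 9 arrays, Id3 correlated with Id4 (Pearson's r = 0.953) and with Bmpr1b and Smad5 (0.920 and 0.948), and Id2 correlated negatively with Id3 and Id4 (-0.889 and -0.811). These coefficients describe 9 points that fall into 3 conditions and follow largely from the shifts between them. By the same measure, among 9435 genes, the genes most like Id3 were Plpp3 (0.995), Pcna (0.995) and Ttyh1 (0.994). Those most like Id4 were Agt (0.997), Pde2a (0.994) and Sh3bp4 (0.993), and those most like Id2 were Ddit4 (0.990), Gdi2 (0.990) and Pofut2 (0.986). Agt averaged 7.80 in Ctr, 7.78 in C2 and 8.79 in C4, the shape seen for Id4.

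The rest of the pathway was read from 6 lists of further genes, 68 of them measured and 33 with a mean over 4. In C4, 6 were called higher than in Ctr and 1 lower, beside 5.65% higher and 3.55% lower over all 18193 genes, and at an unadjusted p under 0.05 the counts were 10 and 7. In C2, 0 were higher and 1 lower (1.67% and 0.846% over all genes), and in C4 against C2, 5 were higher and 1 lower (4.29% and 3.49%). With the arrays centred, the counts in C4 against Ctr were 6 higher and 6 lower. The median difference of the 68 genes was 0 in each comparison. Since only 33 of them had a mean over 4, genes near the floor hold it there, and it does not describe those 33.

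Of the 8 measured BMP ligand genes other than Bmp4, only Bmp7 had a mean over 4, and it averaged 6.37 in C4 and 6.56 in Ctr, a difference of -0.19 (adjusted p = 0.689). Of 10 receptor and co-receptor genes, Rgma, whose product is a BMP co-receptor, was higher in C4 (5.55 ± 0.148) than in Ctr (4.51 ± 0.179, SD, n = 3 each), by 1.05 (adjusted p = 0.00372), and exceeded C2 by 0.81 (adjusted p = 0.0113). Neo1, a receptor for the RGM proteins, was lower by a small step with its brightest probe set, -0.19 (adjusted p = 0.0284). The name of that probe set marks possible cross-hybridisation. Its other probe sets over 4 had differences above 0 without a call: 0.17 for 1434931_at (adjusted p = 0.632), 0.23 for 1444295_at and 0.02 for 1440789_at. The type I receptor gene Acvr1 (-0.21, adjusted p = 0.116) and the type II receptor gene Acvr2a (0.11, adjusted p = 0.315) had no call, nor did Bambi, which encodes a decoy receptor (-0.43, adjusted p = 0.164).

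Among 10 further SMADs and their regulators, 0 were called in C4 against Ctr (3 higher and 0 lower at an unadjusted p under 0.05). Smad4, which encodes the shared partner of SMAD1 and SMAD5, averaged 10.57 in C4 and 10.35 in Ctr (0.22, adjusted p = 0.11). The inhibitory SMAD genes Smad6 and Smad7, which are known BMP targets, were near the floor. Skil, a repressor of SMAD activity, was higher in C4 than in C2 by 0.36 (adjusted p = 0.0431). Of 16 extracellular antagonists and modulators, 5 had a mean over 4, and the genes of noggin (Nog) and chordin (Chrd), which bind BMP ligands, were not among them. None was called in C4 against Ctr (0 higher and 2 lower at an unadjusted p under 0.05). Fstl1 was lower in C2 than in Ctr by -0.46 (adjusted p = 0.0374) with its brightest probe set. With 1448259_at, that difference was -0.75 (adjusted p = 0.0564), and C4 was called higher than C2 by 0.68 (adjusted p = 0.0389). Sostdc1, an antagonist of BMP and WNT ligands, was lower in C4 (3.52) than in C2 (4.31, adjusted p = 0.0276). Its mean in Ctr was 3.53, close to that in C4, and its mean of 3.79 over all arrays is under the floor of 4. Its other probe set, 1460250_at, was not called (-0.38, adjusted p = 0.666). The calls of the brightest probe sets passed in only 4 (Skil), 4 (Fstl1 in C2 against Ctr) and 6 (Sostdc1) of 16 other settings.

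Of 12 further genes known as BMP targets, 4 had a mean over 4 and Hey1 was called. Hey1, a bHLH repressor that answers both Notch and BMP, gave 7.63, 7.45 and 7.60 in Ctr, 7.78, 7.85 and 7.94 in C2 and 8.09, 8.34 and 8.40 in C4. The conditions did not overlap, and C4 exceeded Ctr by 0.72 (adjusted p = 0.00694). Among 12 bHLH partners of Id proteins and Hes genes, 8 had a mean over 4 and 4 were higher in C4 than in Ctr. Hes5, a Notch target that keeps neural progenitors undifferentiated, was higher by 0.30 with its brightest probe set (adjusted p = 0.0137), whose name marks possible cross-hybridisation, and by 1.07 with 1423146_at (adjusted p = 0.000143). Hes1 was higher by 0.40 (adjusted p = 0.0199) and Olig1, a bHLH factor of the oligodendrocyte lineage, by 0.26 (adjusted p = 0.00981). Hes1 averaged 8.62 in Ctr, 8.97 in C2 and 9.02 in C4, with a C2 difference from Ctr of 0.35 that was not called (adjusted p = 0.0721). Tcf4, which encodes an E protein that Id proteins bind, was higher by 0.19 (adjusted p = 0.0225) with 1 of 5 probe sets over 4, the others differing by -0.35 to 0.02. In C4 against Ctr, the calls of Rgma and Hey1 passed in all 16 other settings, those of Olig1 in 15, Hes1 in 10 and Tcf4 in 10 of 16, and those of Hes5 in 13 and Neo1 in 5 of 15.

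**Figure D4:**
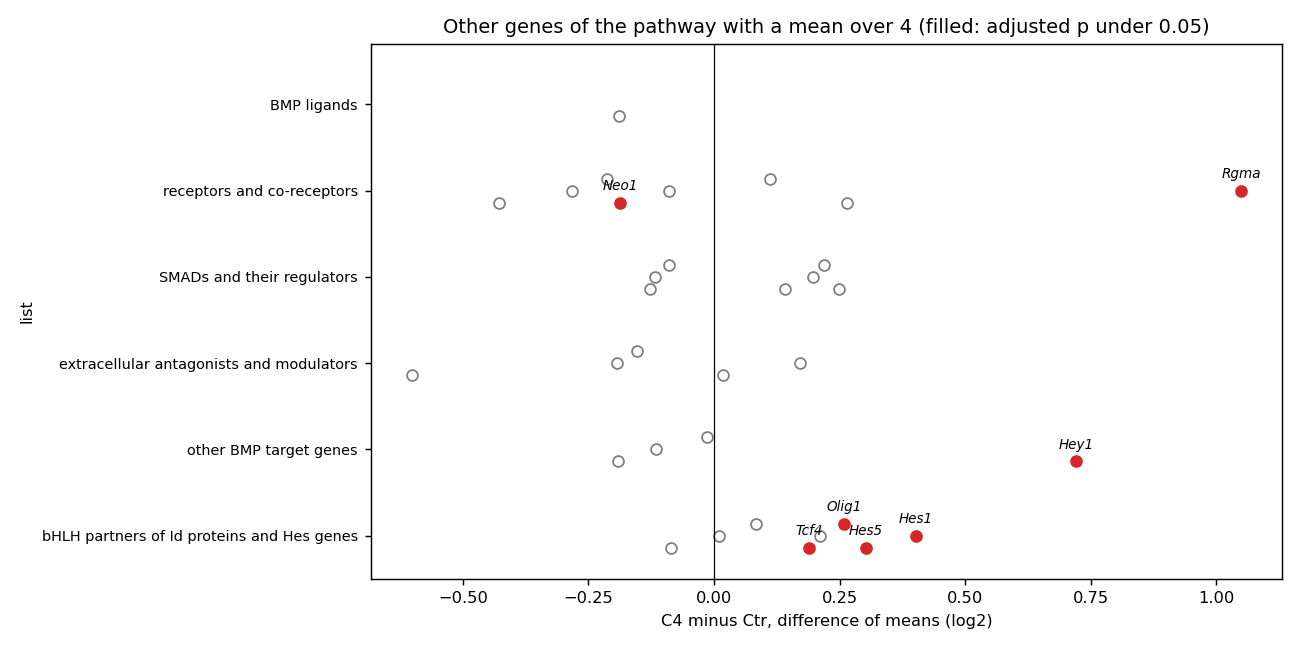
Difference of means C4 minus Ctr on the log2 scale (horizontal axis) for the 33 further pathway genes with a mean over 4, by list, with filled red points and names where the adjusted p is under 0.05. Rgma (1.05) and Hey1 (0.72) lie farthest to the right, and the only filled point below 0 is Neo1 (-0.19).

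Markers of glia differed between the conditions as well. The mean level of 8 astrocyte markers lay between 8.83 and 8.90 on the Ctr arrays, 8.80 and 8.93 on the C2 arrays and 9.33 and 9.45 on the C4 arrays. In C4 against Ctr, 4 of the 8 were higher (Aldh1l1 by 1.11, S100b by 1.05, Aqp4 by 0.72 and Aldoc by 0.23) and 0 lower, although Gfap itself had a mean under 4. In C2 against Ctr, Aldh1l1 was lower (-0.76, adjusted p = 0.0107). The mean level of 7 markers of the oligodendrocyte lineage lay between 4.85 and 4.91 in Ctr, 4.43 and 4.58 in C2 and 5.43 and 5.65 in C4, with Mbp, Mog and Sox10 under 4. In C4 against Ctr, 4 of the 7 were higher (Gpr17 by 2.70, Pdgfra by 0.94, Cspg4 by 0.61 and Cnp by 0.44). In C2 against Ctr, Gpr17 (-1.71, adjusted p = 0.0272) and Cnp (-0.29, adjusted p = 0.0236) were lower. These C2 calls passed in 7 of 16 (Gpr17) and 8 of 15 (Cnp) other settings, and the name of the Cnp probe set marks possible cross-hybridisation. Gpr17 read 3.12, 3.62 and 2.63 on the C2 arrays, all under 4, so the size of its drop is uncertain. By RT-qPCR, the paper instead reported Gpr17 as upregulated in C2 against control. For C4 it reported Gpr17 and S100b as upregulated, the direction of the arrays. Id3 and Id4 had no call in C2 against Ctr. Of these glial markers, Aldh1l1, Gpr17 and Cnp were called lower there, while S100b was 0.57 higher without a call (adjusted p = 0.0845).

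Of 10 markers of neural stem and progenitor cells, whose mean level lay between 8.74 and 8.77 in Ctr, 8.70 and 8.77 in C2 and 8.93 and 9.03 in C4, 4 were higher in C4 than in Ctr (Egfr by 0.83, Pax6 by 0.57, Nr2e1 by 0.48 and Fabp7 by 0.34) and Vim was lower (-0.40). Of 8 markers of neuroblasts and neurons, Dcx, Gad2, Rbfox3, Stmn2 and Tubb3 had a mean under 4. Cd24a was higher in C4 than in Ctr (0.47, adjusted p = 0.00176) and lower in C2 than in Ctr (-0.46, adjusted p = 0.00734), and Gad1 was lower in C4 (-0.37, adjusted p = 0.0152). The mean level of that list lay between 5.45 and 5.47 in Ctr, 5.36 and 5.38 in C2 and 5.47 and 5.51 in C4. Of 7 markers of microglia and macrophages, only Cd68 had a mean over 4, and it was lower in C4 than in Ctr (-2.72, adjusted p = 8.43e-05). Of the calls of marker genes in C4 against Ctr, those of Aqp4, Pdgfra, Cspg4, Aldoc, Nr2e1, Vim and Gad1 were lost in at least 1 other setting. Of 16 settings, Aqp4 passed in 15, Pdgfra in 11, Gad1 in 10, Cspg4 in 8, Aldoc in 6 and Nr2e1 in 6. Vim, with a probe set whose name marks possible cross-hybridisation, passed in 7 of 15. The part of these shifts in the differences of the Id genes, Bmpr1b and Smad5 was not tested.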

How the data were processed

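RNA of aOBSC neurospheres was measured on 9 Affymetrix Mouse Genome arrays, 3 each for Ctr, C2 and C4. The authors processed the arrays with GCRMA (version not given in the sources used here), which corrects for background by probe sequence, quantile normalises and summarises each probe set, and their deposited log2 values were used unchanged. Of 45101 probe sets, 64 controls were left out. The annotation gave 1 symbol to 34945 probe sets, several to 932 (not used for naming) and none to 9160.

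A linear model (limma 3.58.1, R 4.3.3) took all 9 arrays, 1 mean for each condition and a variance prior following intensity (6 residual and 0.574 prior degrees of freedom), and Benjamini-Hochberg adjustment over 45037 probe sets. The fit was tested on simulated data. The members and lists were chosen with earlier results of these data known. All probe sets of the 10 genes were used. Of the lists, genes that passed in at least 1 comparison are named with values (up to 4 per list and comparison by smallest p), and for each called Id gene the 3 genes of highest r. Other list genes were named as examples after their values were seen. Some genes of the lists are not reported here. Gene positions and promoters are from RefSeq on GRCm38.p6. Arrays have no depth, and their number limits the precision. Alternatives were another prior, a filter on dim probe sets, other samples in the fit, a replicate block, centred arrays, no cross-hybridising probe sets, gene means and each array left out.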

Additional observations from a re-analysis of the deposited data

How the results depend on the processing

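Of the 1302 refits of single member probe sets and gene means, 1248 kept their side of the threshold, 41 lost a call, 13 gained one and 0 turned a call round. Id3, Id4 (1423259_at), Bmpr1b (1437312_at) and both called probe sets of Id2 passed in C4 against Ctr under every setting, while Smad5 lost its call in 1 of 16. Counts are given for C4 against Ctr, C2 against Ctr and C4 against C2, in that order. With a robust prior, the calls over all probe sets were 1386, 45 and 1178 (2833, 767 and 2363 as reported), those among members 7, 0 and 4 (7, 1 and 7) and those among the other pathway genes 4, 0 and 2 (7, 1 and 6). With dim probe sets left out (18380 tested), they were 4697, 1825 and 3908, members 11, 1 and 8, and pathway genes 11, 4 and 12. With only the arrays of the 2 conditions compared they were 1618, 371 and 1404, members 6, 0 and 5, and pathway genes 4, 0 and 3. With centred arrays, pathway genes were 12, 5 and 9. Leaving out 1 array gave 1818 to 2585, 323 to 584 and 1485 to 2091 over all probe sets, 6 to 9, 0 to 1 and 3 to 7 among members, and 3 to 7, 0 to 2 and 2 to 5 among pathway genes. The lowest counts came without Ctr replicate 2, C2 replicate 3 and C2 replicate 2 over all probe sets, and without C4 replicate 2 for members and pathway genes in C4 against Ctr. In C4 against C2, members fell to 3 without C2 replicate 1 and to 4 without Ctr replicate 1, C2 replicate 2 or C4 replicate 2, and pathway genes to 2 without C4 replicate 3 and 3 without any 1 C2 array or C4 replicate 2. That pathway and marker genes were refitted under these settings was decided after seeing the data. Deviations of same-numbered arrays correlated from -0.0423 to 0.126 and of others from -0.12 to 0.0942, and these ranges overlapped. Whether arrays of the same replicate number came from the same culture is not stated and was not tested. The replicate block gave 1996, 237 and 1634 calls, members 7, 1 and 5 and pathway genes 4, 0 and 3, and Bmpr1b in C4 against C2 had an adjusted p of 0.0686. Gene means gave 6, 1 and 4 member genes (5, 1 and 5). The cause of these shifts was not tested. The number of arrays limits the precision, and differences such as that of Id1 (0.28) lay at the threshold.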
